A study of Rattus norvegicus with 16 samples.

Results

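Of the 392 pre-miRNA hairpins with reads in 16 rat small RNA libraries, 31 carried the name of a human or mouse hairpin, because they had been annotated from human or mouse entries of miRBase v12 and not as known rat entries. They were chosen by name alone: every hairpin whose identifier begins with hsa- (16 hairpins) or mmu- (15 hairpins) and is not an antisense product was taken, and no measured value was used. The comparison set was the 278 sense hairpins with a rat (rno-) name. The remaining hairpins were 53 antisense products and 30 with other names. The libraries came from adult males of 2 inbred rat strains, BN-Lx (brown Norway with polydactyly-luxate syndrome) and SHR (spontaneously hypertensive rat). A single rat of each strain gave the whole brain, heart, liver, kidney, spleen and testis, and 4 further livers, 2 of each strain, made 3 livers per strain. No treatment was given, tissues were ground whole, and therefore fewer cells of a type and less RNA per cell cannot be told apart. Because each tissue of each strain is a single library in the 6-tissue set, tissue comparisons used the 2 strains as replicates.

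A miRNA is cut from a hairpin-shaped precursor, first by Drosha in the nucleus and then by Dicer in the cytoplasm, which leaves a duplex of the 5' arm (5p) and the 3' arm (3p). Commonly only a single strand of the duplex stays in an Argonaute protein, and the base at which this strand starts fixes its seed, the bases that pair with target mRNAs. Arms that share a seed are placed in the same family, and many miRNA genes lie in clusters that are transcribed together.

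Sequences of selected arms are printed first, as cloned by the study and written in DNA letters from 5' to 3', with the seed (bases 2 to 8) in capitals. The following arms are shown because they set the tissue pattern: the first 3 were high in brain, the next in liver and the last 4 in testis.
mir-667-3p: tGACACCTgccacccagcccaa
mir-496-3p: aGTATTACatggccaatctcc
mir-1249-3p: aCGCCCTTcccccccttcttca
mir-802-5p: tCAGTAACaaagattcatcct
mir-202-5p: tTCCTATGcatatacttct
mir-547-3p: aTTGGTACttctttaagtgaga
mir-201-3p: tGAACAGCgcctttctgtgtag
mir-465-3p: tGATCAGTgcctttctgagtag

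A sequence was found for 56 of the 59 arms, and 12 of the 56 shared their seed with an arm of a rno- hairpin. Here 5 such families are shown, each with the known rat arm under the homologue.
mir-362-3p: aACACACCtgttcaaggattca
mir-329-3p: aACACACCcagctaacctttt
mir-362-5p: aATCCTTGgaacctaggtgtga
mir-500-5p: aATCCTTGctatctgggtgctt
mir-208b-3p: aTAAGACGaacaaaaggttt
mir-208-3p: aTAAGACGagcaaaaagc
mir-293-5p: aCTCAAACtgtgtgacactt
mir-290-5p: tCTCAAACtatgggggca
mir-328b-3p: cTGGCCCTctctgcccta
mir-328-3p: cTGGCCCTctctgcccttccgt

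The 2 arms of mir-362 therefore fell into different families. mir-201-3p and mir-465-3p, both on the X chromosome, had the same base at 19 of 22 positions but different seeds. mir-449c-5p shared its seed with mir-34a-5p, mir-34b-5p, mir-34c-5p and mir-449a-5p. The other arms with a shared seed were mir-1193-3p (with mir-370-5p), mir-496-5p (mir-410-5p and mir-494-5p), mir-511-5p (mir-532-5p), mir-653-3p (mir-181b-2-3p), mir-208b-5p (mir-208-5p) and mir-466d-5p (mir-466b-1-5p and mir-466b-2-5p). Of 47 arms with a mature sequence in RefSeq (GRCr8), the cloned sequence had the same 5' end in 46. For mir-582-5p this cloned sequence is not at the most used start, which lies 1 base earlier (57.5% of reads). Since the study's sequences were sent to miRBase, the match to RefSeq is not an independent check.

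Some identifiers point to a homologue that was renamed later in the study's lists: hsa-mir-507 became mir-547, hsa-mir-328 became mir-328b, mmu-mir-466b-8 became mir-466d, mmu-mir-465b-1 became mir-465 and hsa-mir-511-1 became mir-511. hsa-mir-372 held the same reads as mmu-mir-295 in every library, and both are counted below as they stand in the files. mir-328b-3p and mir-328-3p had equal reads in every library at lengths of 16 and 17 nt, which is 91.5 of the 309.5 reads of mir-328b-3p (29.6%). Reads that fit several hairpins were divided evenly, so these reads cannot be assigned to either hairpin.

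Many of the loci lay in or beside known miRNA clusters. Of the 31 loci in the study's locus list (RGSC3.4), in which mir-295 appears at 2 places, 17 lay within 50 kb of a known miRNA locus. mir-665, mir-1188, mir-1193, mir-666, mir-667, mir-544 and mir-496, 7 loci, lay on chromosome 6 in the imprinted Dlk1-Meg3 domain, from chr6:134177278-134177394 (mir-665, plus strand) to chr6:134420356-134420462 (mir-496, plus strand). mir-201 (chrX:154169122-154169241, minus strand) and mir-547 (chrX:154169434-154169531, minus strand) were direct neighbours, and mir-465, mir-362 and mir-764 were the other 3 loci on X. mir-291b, mir-293 and mir-295 lay together on chromosome 1, beside mir-292.

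Depth differed strongly between the libraries. The testis libraries held 26880 (BN-Lx) and 29131 (SHR) hairpin reads, the other libraries of the 6-tissue set 403453 to 1064894 and the further livers 1167607 to 3229461. Levels are given as RPM, the reads of an arm per 1000000 hairpin reads of the library, and a count of 0 allows up to 3 reads, which is 112 RPM in BN-Lx testis and 103 RPM in SHR testis but at most 7.44 RPM elsewhere. The study also used more PCR cycles for testis and for the liver of the SHR rat. Marker miRNAs of brain, liver, heart, testis and blood cells (spleen) were higher in their own tissue than in every other library, but those of kidney epithelium were higher in the first livers (149968 RPM in BN-Lx and 104120 in SHR) than in kidney (88059 to 102681 RPM).

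The hairpins with a human or mouse name were read less than the rno- hairpins. They held 54443.5 reads, 0.358% of all hairpin reads, against 99.2% for the rno- hairpins. The median arm had 50 reads over the 16 libraries (57 arms with a whole read, 1 to 9624 reads) against 647 reads for 537 rno- arms. Of 59 arms, 16 (27.1%) had fewer than 10 reads, against 47 of 539 rno- arms (8.72%), and 12 (20.3%) had at least 1000, against 237 (44.0%). The distributions overlapped over most of their range.

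**Figure D1:**
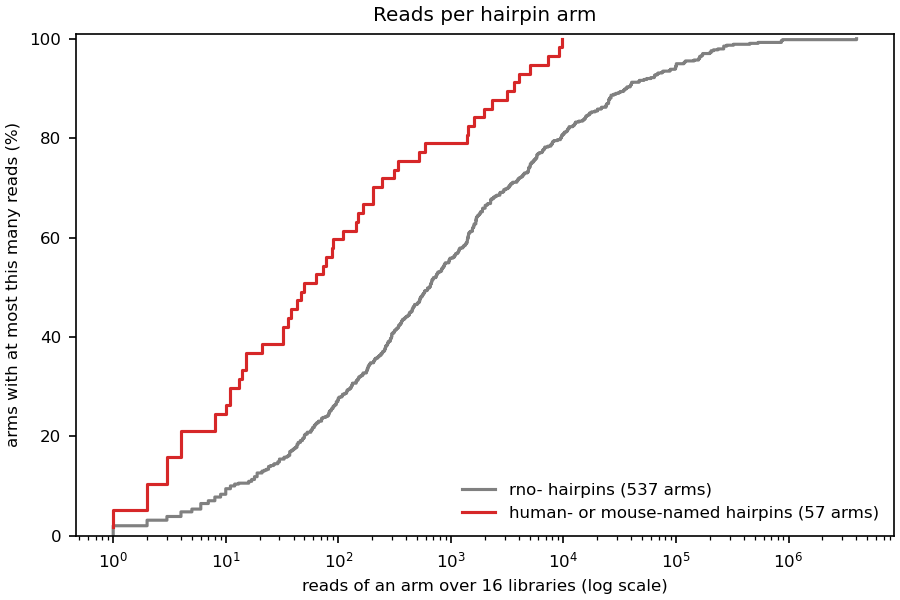
Cumulative share of arms (%) by the number of reads of the arm over the 16 libraries (log scale), for arms with a human or mouse name and for rno- arms. The curve of the human- and mouse-named arms lies to the left, with a median of 50 reads against 647.

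The hairpins differed by more than 3 orders of magnitude among themselves. mir-802 (11020 reads), mir-362 (9621), mir-511 (9208), mir-582 (7680), mir-1249 (5007), mir-667 (3208), mir-202 (1995), mir-702 (1607) and mir-496 (1425) were the most read. Between 123 and 589 reads fell on each of mir-1193, mir-666, mir-547, mir-201, mir-675, mir-764, mir-328b, mir-665, mir-490 and mir-293. mir-465, mir-216b, mir-291b, mir-1224, mir-544, mir-653 and mir-1188 had 29 to 89 reads, and mir-208b (15), mir-449c (7), mir-466d (6), mir-295 and mir-372 (3.5 each) were hardly read. Their share of a library was highest in testis (3.65% in BN-Lx and 5.53% in SHR), followed by brain (0.839% and 0.776%) and the livers (0.273% to 0.371%). It was 0.0948% to 0.175% in spleen, heart and kidney. Testis and brain thus stood above all other libraries in both strains, and in testis mir-202 alone supplied most of the reads.

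**Figure D2:**
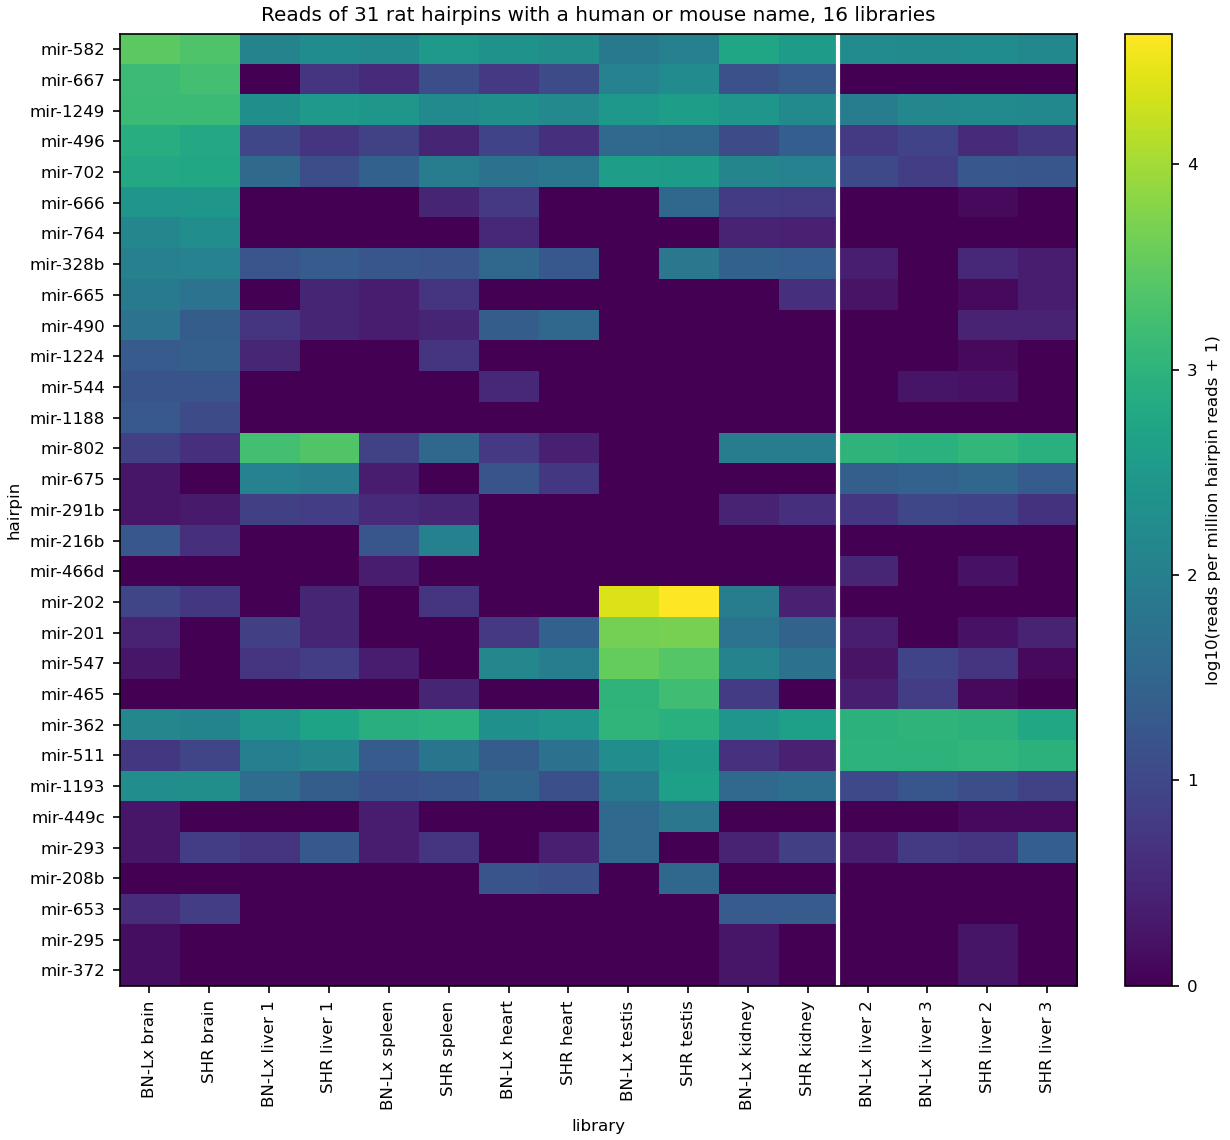
Heatmap of the 31 hairpins (vertical axis) in the 16 libraries (horizontal axis), with colour giving log10(RPM + 1). The high values of mir-667, mir-496 and mir-666 in both brain libraries, of mir-802 in the livers and of mir-202, mir-201, mir-547 and mir-465 in both testis libraries stand out.

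Reads of these arms were concentrated in fewer tissues than those of rno- arms. The tissue index tau, which is 0 for equal levels in the 6 tissues and 1 for reads in a single tissue, had a median of 0.983 over 52 arms against 0.878 over 533 rno- arms. Few reads raise tau, and the order was the same within wide classes of read number: 0.959 against 0.907 for arms with 20 to 99 reads, 0.984 against 0.867 for at least 100 but under 1000 reads and 0.918 against 0.779 for at least 1000 reads. The classes do not equalise depth, since the median arm of the last class had 2067 reads against 5448.5 for rno- arms. Only 8 of 52 arms (15.4%) had a read in all 12 libraries of the 6-tissue set, against 222 of 533 rno- arms (41.7%). By class it was 0% in both sets under 100 reads, 3 of 14 arms (21.4%) against 43 of 162 (26.5%) at 100 reads or more but under 1000, and 5 of 9 (55.6%) against 179 of 213 (84.0%) above that. The 8 were mir-362-3p, mir-362-5p, mir-511-3p, mir-582-5p, mir-702-3p, mir-1193-3p, mir-1249-3p and mir-496-3p.

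By the study's rule for tissue specificity, at least 5 times higher than every other tissue in both strains after division by the outlier-corrected mean (ocm, the mean without the 3 most read arms), 29 of 52 arms (55.8%) were specific to a tissue, against 163 of 533 rno- arms (30.6%) and 30.8% of all 684 arms. Brain held 15 of the 29 (19.2% of all arms were brain-specific), testis 8 (5.12%), liver 3 (1.32%), and spleen (1.90%), heart (1.46%) and kidney (1.90%) 1 each. The rule accepts an arm that is at 0 elsewhere: 11 of the 15 brain arms had brain levels under the floor of 3 reads in testis. With every value under 3 reads raised to 3, an alternative chosen after seeing the data, 11 of 52 arms (21.2%) were specific against 70 of 533 rno- arms (13.1%) and 12.4% of all arms. In brain these were mir-496-3p, mir-582-3p and mir-667-3p (5.77% of the 52 arms), about the share of all arms (5.85%). In liver it was mir-802-5p (1.92% against 0.731%). In testis they were mir-201-3p, mir-201-5p, mir-202-3p, mir-202-5p, mir-465-3p, mir-547-3p and mir-547-5p (13.5% against 4.53%).

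Levels were also tested with edgeR across all 457 arms that passed its filter on low counts, each tissue against the mean of the other 5, with Benjamini-Hochberg adjustment at 0.05. Of the 59 arms, 26 from 19 hairpins passed the filter. An arm can pass it through the tissue in which it is high, so the counts below are set against the percentage of all 457 arms. In brain 13 arms were higher (38.9% of all arms) and 4 lower (23.0%), in liver 4 higher (13.8%) and 2 lower (12%), in spleen 2 higher (18.4%) and 4 lower (10.7%). In heart 3 arms were higher (12.7%) and 0 lower (6.78%; 3 arms were lower at an unadjusted p under 0.05 and 4 by DESeq2), in testis 8 higher (11.2%) and 2 lower (13.1%), and in kidney 3 higher (15.5%) and 1 lower (7%). The median log2 fold change in testis was 0.31 for these arms against -0.89 for rno- arms, and in brain it was -0.12 against 0.48. These medians depend on which arms passed the filter and include arms at 0 in the tissue, whose fold changes had no usable error. No difference between the 2 sets is therefore drawn from them. Where an arm was at 0 in many libraries, here and below, its fitted fold change is no bound. With ocm scaling, which moved the median of all arms by 0.95 on the log2 scale in testis, by 0.43 in brain and by -0.50 in heart, the split in testis became 12 higher and 0 lower and that in heart 3 higher and 2 lower.

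In brain, the members of the Dlk1-Meg3 domain were the largest group. This imprinted domain holds one of the longest miRNA clusters of mammals, whose miRNAs are expressed from the maternal chromosome and are known mainly from brain. mir-667-3p reached 1493 RPM (BN-Lx) and 1787 RPM (SHR) in brain, 112 and 172 in testis and 0 to 20.1 in the other libraries. mir-496-3p reached 761 and 612 RPM in brain, 37.2 and 34.3 in testis, 11.0 and 23.4 in kidney and 2.01 to 8.55 elsewhere. Both brain libraries were above every other library for both arms. mir-666-3p had 259 and 277 RPM in brain, was at 0 in 8 of the other 14 libraries and peaked there at 34.3 RPM, a single read, in SHR testis. mir-665-3p had 83.6 and 56.9 RPM in brain and at most 4.02 elsewhere, but its count of 0 in testis allows up to 112 RPM there. In edgeR these 4 arms were higher in brain. The value after ± is, throughout, an SE derived from the F statistic of the test. The edgeR log2 fold changes were 6.55 ± 0.41 for mir-667-3p (adjusted p = 2.99e-08), 5.42 ± 0.44 for mir-496-3p (adjusted p = 2.95e-07), 6.38 ± 0.71 for mir-666-3p (adjusted p = 1.03e-05) and 5.79 ± 1.0 for mir-665-3p (adjusted p = 0.000491).

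mir-1193-3p differed from the other members of the domain. It had 188 and 189 RPM in the brains, but 74.4 RPM (2 reads) in BN-Lx testis and 412 RPM (12 reads) in SHR testis, and 7.12 to 46.8 RPM in the other libraries, so brain and testis overlapped. Its brain difference was 1.54 ± 0.52 on the log2 scale (edgeR, adjusted p = 0.0206) and was not called without either brain library, either spleen library or the liver of the SHR rat (adjusted p 0.0510 to 0.140). The remaining reads of the domain were few. mir-544-3p had 16 and 12 reads in brain and at most 2 elsewhere, mir-667-5p 21 and 13 in brain and at most 1 elsewhere, and both arms of mir-1188 only 4 to 10 reads, all in brain. mir-496-5p, mir-666-5p and mir-1193-5p also had all of their 2 to 10 reads in brain. Of 55 arms tested from the 36 rno- hairpins of the domain, 54 were higher in brain (38.9% of all 457 arms were).

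Outside the domain, mir-764, which lies in an intron of the serotonin receptor gene Htr2c, was read almost only in brain. mir-764-5p had 76.1 and 96.5 RPM there and mir-764-3p 61.0 and 90.6, against at most 2.48 RPM elsewhere, although a count of 0 in testis allows up to 112 RPM. Both were higher in brain (edgeR, log2 fold change 7.37 ± 1.01, adjusted p = 0.000248 for 5p and 7.24 ± 1.13, adjusted p = 0.000541 for 3p), and the 3p call was not made by DESeq2 (adjusted p = 0.139). Since both arms were at 0 in most other libraries, the fitted fold changes are no bounds.

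mir-582, mir-1249 and mir-702 were read in all tissues with brain on top. mir-582-3p had 1665 and 1156 RPM in brain and mir-582-5p 1272 and 1134. Kidney came next, with 255 and 177 RPM for 3p and 292 and 167 for 5p, and the other libraries lay at or below 171 RPM. The brain libraries were higher than all others for both arms (edgeR, log2 fold change 3.15 ± 0.42, adjusted p = 2.98e-05 for 3p and 2.94 ± 0.39, adjusted p = 3.43e-05 for 5p). In testis mir-582 had 0 and 2 reads on 3p and 2 and 1 on 5p. Both arms were lower there (edgeR, log2 fold change -3.51 ± 0.86, adjusted p = 0.00834 and -2.78 ± 0.76, adjusted p = 0.0166). Neither call was made with ocm scaling (adjusted p = 0.0584 and 0.131) or without BN-Lx testis (adjusted p = 0.128 and 0.0928), and that of mir-582-5p was lost without SHR testis too (adjusted p = 0.196).

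mir-1249-3p had 1462 and 1422 RPM in brain and 152 to 378 in the other libraries of the 6-tissue set, with no overlap (edgeR, log2 fold change 1.93 ± 0.39, adjusted p = 0.000848). mir-702 is known as a mirtron, a hairpin released by splicing of a short intron. mir-702-3p had 634 and 578 RPM in brain, 372 and 343 in testis, 129 and 110.4 in kidney and 6.00 to 92.6 in the other libraries (edgeR, brain, log2 fold change 2.21 ± 0.43, adjusted p = 0.000652). In liver its log2 fold change was -1.82 ± 0.60 (edgeR, lower, adjusted p = 0.0441), a call that was lost when the testis libraries were left out (adjusted p = 0.0738), with all 16 libraries (adjusted p = 0.0564) and also without any of 10 libraries in turn.

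mir-1224, also known as a mirtron, had 17 and 12 reads on 3p and 5 and 9 on 5p in brain and at most 2 reads on either arm elsewhere. The first bases of mir-702-5p and mir-1224-5p were GTGAG, the usual start of an intron, which 2 of 26 5p arms (7.69%) and 0 of 266 rno- 5p arms shared. mir-328b-3p had 101.4 and 111 RPM in brain, 0 and 68.7 in testis and 0 to 34.7 in the other libraries (edgeR, log2 fold change 1.52 ± 0.55, adjusted p = 0.0278). Its call was lost without either brain, spleen or first liver library or the SHR heart (adjusted p 0.0555 to 0.185), and part of its reads is shared with mir-328-3p as described above. mir-490-5p had 40 and 12 reads in brain and 8 and 13 in heart. In RPM, 37.6 and 13.9 in brain overlapped with 19.8 and 20.6 in heart, and both tissues were above the mean of the others (edgeR, log2 fold change 3.22 ± 1.06, adjusted p = 0.0212 in brain and 4.16 ± 1.06, adjusted p = 0.0184 in heart). The brain call was lost without BN-Lx brain, BN-Lx spleen or BN-Lx heart (adjusted p 0.0502 to 0.228) and the heart call without either heart (adjusted p = 0.0812 and 0.252).

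In the first livers, mir-802-5p was the most read of these arms, whereas mir-511-3p was above it in each of the further livers. mir-802-5p had 1713 RPM in BN-Lx liver 1 and 2261 in SHR liver 1, 864 and 775 in BN-Lx livers 2 and 3, 988 and 755 in SHR livers 2 and 3, 90.1 and 80.3 in kidney and at most 34.2 elsewhere. mir-802-3p had 83.3 and 139.7 RPM in the first livers, 110.2 to 172 in the further livers, 1.84 and 8.36 in kidney and 0 elsewhere. All 6 livers were above all other libraries on both arms, and kidney was second. Both arms were higher in liver (edgeR, log2 fold change 9.06 ± 0.51, adjusted p = 1.08e-07 for 5p and 8.73 ± 0.79, adjusted p = 7.83e-05 for 3p), and the 3p call was not made by DESeq2 (adjusted p = 0.120). mir-802-3p was at 0 in 8 of the 12 libraries of the 6-tissue set, so its fitted fold change is no bound. mir-802-5p was also higher in kidney than in the mean of the other tissues (edgeR, log2 fold change 2.82 ± 0.73, adjusted p = 0.0172), but not with ocm scaling (adjusted p = 0.0502), without the testis libraries (adjusted p = 0.0678) or without the BN-Lx kidney (adjusted p = 0.0964).

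mir-675 is made from the first exon of H19, an imprinted non-coding RNA of fetal growth. mir-675-3p had 109 and 95.8 RPM in the first livers, 19.5 to 32.9 in the further livers, 14.9 and 4.76 in heart and at most 1.36 elsewhere. It was higher in liver (edgeR, log2 fold change 7.67 ± 0.74, adjusted p = 2.99e-05). mir-675-5p had 13 reads, all in liver.

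mir-511 lies in an intron of the mannose receptor gene Mrc1 and is known from macrophages. mir-511-3p had 89.7 and 112 RPM in the first livers but 977, 986, 1126 and 933 in the further livers. It had 186 and 343 RPM (5 and 10 reads) in testis, 21.7 and 56.3 in spleen, 22.3 and 39.7 in heart, 3.76 and 6.97 in brain and 3.68 and 1.67 in kidney. Testis was thus above the first livers and below the further livers. In edgeR it was higher in liver (log2 fold change 3.04 ± 0.44, adjusted p = 0.000261) and testis (2.84 ± 0.55, adjusted p = 0.00196, but 0.0742 without SHR testis) and lower in brain (-3.46 ± 0.66, adjusted p = 0.000600) and kidney (-3.92 ± 0.76, adjusted p = 0.00280, but 0.0719 without the SHR kidney).

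The further livers and the first livers differed in several of these arms, and the library set and any other difference between them cannot be told apart. Of 23 arms with at least 100 reads, 9 had ranges that did not overlap between the 2 first and the 4 further livers, against 48.0% of all 421 arms of that depth, so the hairpins with a human or mouse name did not stand out. The further livers were above in 2 (14.5% of all arms) and below in 7 (33.5%). They were above for mir-511-3p (mean 1005 against 100.7 RPM) and mir-362-3p (608 against 319). They were below for mir-802-5p (845 against 1987), mir-675-3p (25.8 against 102), mir-1249-3p (133 against 257), mir-328b-3p (1.25 against 18.5) and mir-1193-3p, and also for mir-201-5p and mir-547-5p, which had only 1 or 2 reads in each first liver.

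The cluster of mir-291b, mir-293 and mir-295 belongs to the miRNAs of mouse embryonic stem cells. Its reads were few. Of the 64 reads of mir-291b-3p, 56 came from the 6 livers, which hold 64.5% of all hairpin reads, at 3.41 to 8.56 RPM against 1.84 and 3.34 in kidney and at most 2.71 elsewhere. Of mir-293-3p, 59 of the 73 reads came from SHR liver 3 alone. For mir-293-5p the livers of BN-Lx held 0, 0 and 1 reads and those of SHR 9, 12 and 17, so the strains did not overlap. Its highest RPM, 37.2 in BN-Lx testis, was a single read. It did not pass edgeR's filter on low counts. Without the filter its p was under 0.05 before adjustment, but no arm was called after it. mir-295 and mir-372 shared all their 7 reads, 5 of them in SHR liver 2.

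In testis, mir-202, a gonad miRNA of vertebrates, dominated. mir-202-5p had 24330 RPM (BN-Lx) and 42566 RPM (SHR) in testis, 84.5 and 1.67 in kidney and at most 8.45 in all other libraries, with 0 in 8 of the 16. The 38 reads of mir-202-3p fell on testis (15 and 21) apart from 2 in BN-Lx kidney. Both arms were higher in testis (edgeR, log2 fold change 12.79 ± 0.82, adjusted p = 3.15e-07 for 5p and 9.98 ± 0.95, adjusted p = 5.52e-05 for 3p). BN-Lx kidney was the only other library above 10 RPM. The markers of testis were also higher in that library (2275 RPM) than in any other library outside testis, and their part in the mir-202 reads of kidney was not tested.

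The X-linked mir-201, mir-547 and mir-465 followed. mir-201-3p had 3497 and 3192 RPM in testis, 45.9 and 15.1 in kidney, 4.96 and 15.9 in heart and at most 4.27 elsewhere. mir-201-5p had 1190.5 and 1751 RPM in testis, 11.0 and 13.4 in kidney, 0 and 11.1 in heart and at most 2.14 elsewhere. mir-465-3p had 28 and 47 reads in testis, 3 in BN-Lx kidney, 1 in SHR spleen and 10 over the further livers. All 3 arms were higher in testis (edgeR, log2 fold changes 9.23 ± 0.58, 8.83 ± 0.59 and 10.40 ± 0.78, adjusted p = 2.64e-07, 8.44e-07 and 4.48e-06). mir-201-3p was lower in spleen, where it had no read (edgeR, adjusted p = 0.0138), a call lost without either spleen (adjusted p = 0.0866 and 0.186) and without a usable error when BN-Lx brain or BN-Lx liver 1 was left out.

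mir-547 was the least restricted of this group. mir-547-3p had 1935 and 1545 RPM in testis, 57.0 and 25.4 in heart, 55.1 and 25.1 in kidney and at most 6.85 elsewhere, and mir-547-5p had 1599.7 and 1098 in testis, 81.8 and 63.4 in heart, 60.6 and 26.8 in kidney and at most 3.99 elsewhere. Heart and kidney thus stood above brain, liver and spleen in both strains, and far below testis. The testis markers were at 2275 RPM in BN-Lx kidney and 214 RPM in SHR kidney. mir-547, mir-201-3p and mir-465-3p were also higher in the BN-Lx kidney, but mir-201-5p was not (11.0 RPM against 13.4 in the SHR kidney). The part of the testis markers in the kidney reads was not tested. Both arms were higher in testis (edgeR, log2 fold change 7.54 ± 0.45, adjusted p = 9.26e-08 and 7.50 ± 0.50, adjusted p = 8.17e-07). In heart the log2 fold change was 2.45 ± 0.51 for 3p (edgeR, adjusted p = 0.00357, but 0.0936 without the BN-Lx heart) and 4.00 ± 0.53 for 5p (adjusted p = 0.000293). In kidney it was 1.90 ± 0.50 for 3p (edgeR, adjusted p = 0.0172) and 2.55 ± 0.54 for 5p (adjusted p = 0.00698), and neither was called without the BN-Lx kidney (adjusted p = 0.169 and 0.0839), nor 3p with all 16 libraries (adjusted p = 0.106). mir-547-3p was lower in brain (edgeR, -5.51 ± 0.93, adjusted p = 0.000224) and in spleen (-4.12 ± 1.01, adjusted p = 0.00907). The spleen call was lost without the testis libraries (adjusted p = 0.137), with all 16 libraries (adjusted p = 0.0669) and without either spleen (adjusted p = 0.0676 and 0.0772). Without BN-Lx brain the spleen difference, and without BN-Lx spleen the brain difference, could not be fitted with a usable error.

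mir-449c, a relative of the mir-34 family by its seed, had 7 reads in all, 3 of them in testis. Of the rno- hairpins in a list of testis miRNAs, all 16 arms tested were higher in testis (11.2% of all 457 arms were). Since testis holds few reads that map to these hairpins, an arm that was absent there could have up to 112 RPM.

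In spleen, mir-362 was the most read of these hairpins. It belongs to an X-linked cluster with mir-188, mir-500, mir-501, mir-532 and mir-660. mir-362-3p was read in all 16 libraries: 701 and 763 RPM in spleen, 1004 and 789.5 in testis (27 and 23 reads), 246 and 393 in the first livers, 481 to 687 in the further livers, 261 and 303 in kidney, 193 and 220.5 in heart and 124 and 116 in brain. mir-362-5p had 121 and 145 RPM in spleen and 14.1 and 5.81 in brain, but varied from 14.7 to 112 RPM between the kidneys and from 21.4 to 367 RPM between the livers. Both arms were higher in spleen (edgeR, log2 fold change 1.76 ± 0.33, adjusted p = 0.00184 for 3p and 2.35 ± 0.58, adjusted p = 0.00924 for 5p), although testis had a higher RPM of mir-362-3p. Without BN-Lx spleen neither was called (adjusted p = 0.0546 and 0.273), and the 5p call was also lost without SHR spleen (adjusted p = 0.0551). Both arms were lower in brain (edgeR, -2.46 ± 0.45, adjusted p = 0.000459 and -3.06 ± 0.83, adjusted p = 0.00629, the latter 0.103 without SHR brain). Among 5 tested arms of the rno- hairpins of this cluster, 2 were higher in spleen and 2 lower in brain (18.4% and 23.0% of all arms), and 1 each was lower in testis and kidney, which is too few arms to set them apart.

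mir-216b, known with mir-216a and mir-217 from the exocrine pancreas, differed between the 2 spleens. mir-216b-5p had 11 reads (14.9 RPM) in BN-Lx spleen and 47 reads (94.6 RPM) in SHR spleen, 18 and 2 reads in brain and 0 in all other libraries. mir-216a, mir-217 and mir-375, the pancreas markers, summed to 202 and 599.6 RPM in the spleens and to at most 618 RPM elsewhere (SHR testis). Both of their arms that were tested were higher in spleen (18.4% of all 457 arms were). The part of these markers in the mir-216b reads was not tested. mir-466d had 1 read in BN-Lx spleen and 5 in the further livers. Arms lower in spleen were also mir-667-3p (edgeR, log2 fold change -2.50 ± 0.69, adjusted p = 0.0169) and mir-496-3p (-2.07 ± 0.72, adjusted p = 0.0482), and both calls were lost without either spleen (adjusted p 0.0624 to 0.345). That of mir-667-3p was also lost without the liver of the SHR rat, where its error was not usable, and that of mir-496-3p without any of 11 libraries in turn or without the filter (adjusted p = 0.0833). mir-667-3p was lower in liver too (edgeR, -3.59 ± 0.82, adjusted p = 0.00745, but 0.0968 without BN-Lx liver 1).

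In heart, mir-208b, which lies in an intron of the slow myosin gene Myh7, had 5 and 5 reads on 3p and 1 and 3 on 5p, and a single read outside heart, in SHR testis. Its known relative mir-208 belongs to the heart list, of which all 3 arms tested were higher in heart (12.7% of all 457 arms were). mir-653, beside mir-489 in the calcitonin receptor gene Calcr, was the kidney member: mir-653-5p had 7 and 4 reads in kidney and 0 elsewhere, and mir-653-3p 4 and 9 in kidney and 3 and 5 in brain. In RPM, mir-653-3p was higher in kidney (7.35 and 15.1) than in brain (2.82 and 5.81) without overlap, on 3 to 9 reads per library, and it did not pass edgeR's filter.

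No arm was called between the strains. Over the 6 tissues, 0 of 26 arms and 0% of all 457 arms were called between SHR and BN-Lx by edgeR. A single rat of each strain gave all 6 tissues, so this fit sets the tissues of a single rat against those of another. It holds no spread between rats of a strain and cannot tell a strain difference from a difference between 2 rats. At an unadjusted p under 0.05 there were 0 of the 26 and 8 of all 457 arms. DESeq2 also called 0, with 2 of the 26, mir-547-3p and mir-667-3p, under 0.05 before adjustment. In the 3 livers of each strain, 0 of 11 arms and 0% of all 270 arms were called by edgeR, with 0 of the 11 under 0.05 before adjustment, and DESeq2 gave 0 of both. The study took these livers from 3 rats of each strain, but no label tells whether the further livers were prepared separately. The p-values measure only the spread between the livers sequenced. That spread includes the difference between first and further livers, for which this fit had no term, so a strain difference could be missed.

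The choice of arm leaned to the 3' side. Of the 31 hairpins, 26 had reads on both arms (83.9%, against 259 of 278 rno- hairpins, 93.2%). Only 5 of 26 hairpins with at least 20 reads were read mostly from the 5' arm (19.2%), against 136 of 269 rno- hairpins (50.6%). With at least 100 reads it was 4 of 19 (21.1%) against 130 of 255 (51.0%). The 5 were mir-802 (87.3% of reads on 5p), mir-202 (98.1%), mir-216b (90.7%), mir-490 (66.9%) and mir-764 (53.5%). How unequal the arms were did not set the hairpins apart: the major arm had a median of 96.6% of the reads in both sets, and more than 90% in 15 of 26 (57.7%) against 178 of 269 (66.2%).

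Among the hairpins with at least 100 reads, mir-1249 (0.0200% on 5p), mir-702 (0.124%), mir-1193 (0.340%), mir-511 (0.510%), mir-496 (0.702%), mir-667 (1.12%), mir-666 (1.5%) and mir-675 (3.70%) used almost only 3p, and mir-328b and mir-665 had no read on 5p. mir-547 (49.8%), mir-582 (47.9%) and mir-764 (53.5%) used both arms about equally, and mir-362 (24.3%), mir-201 (31.4%) and mir-293 (40.7%) lay in between. The share of mir-293 turned round without SHR liver 3, with 33 reads on 5p and 14 on 3p (70.2% on 5p), and was 74.1% on 5p in the 6-tissue set.

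Arm shares moved between libraries for some of them, and the exact 95% intervals quoted here cover counting error only. mir-802 had 95.4% of its reads on 5p in BN-Lx liver 1 (interval 93.7 to 96.7) and 94.2% in SHR liver 1 (92.7 to 95.4), but 84.6%, 83.4%, 85.1% and 87.3% in the further livers. mir-511 had 10.6% and 16.4% on 5p in the first livers and 0% to 0.604% in the further livers. Both hairpins therefore changed in the same direction, with relatively more 3p reads in the further livers, while mir-362 had 8% and 19.6% on 5p in the first livers and 15.3% to 38.9% in the further livers. The kidneys differed for mir-362, with 5.33% (2.33 to 10.2) in BN-Lx and 27.0% (21.6 to 33.0) in SHR. These are single libraries, and no test of strain was possible for them.

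mir-582 ranged from 32.7% on 5p in BN-Lx liver 1 (20.7 to 46.7) to 63.4% in BN-Lx liver 2 (56.9 to 69.6) among libraries with at least 20 reads, so that the major arm differed between livers of the same strain. The brains differed a little, with 43.3% (41.6 to 45.1) in BN-Lx and 49.5% (47.3 to 51.8) in SHR. mir-547 used 5p for 58.9% and 71.4% of its reads in heart, 52.4% and 51.6% in kidney and 45.3% and 41.6% in testis, so heart was highest and testis lowest in both strains, with overlapping intervals in BN-Lx. mir-201 had 25.4% and 35.4% on 5p in testis, and mir-764 55.5% and 51.6% in brain.

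**Figure D3:**
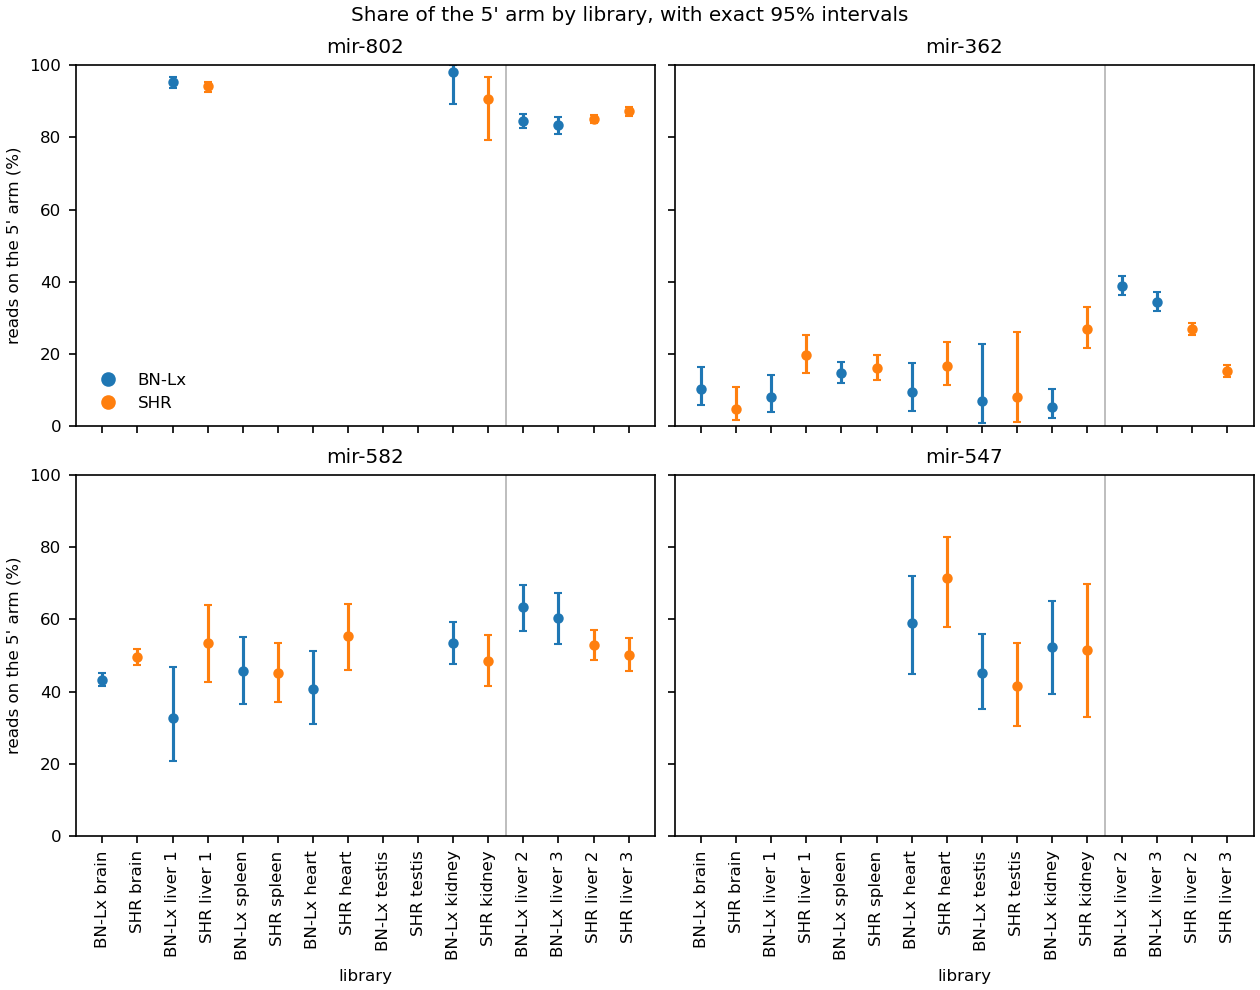
Percentage of reads on the 5' arm (vertical axis) by library (horizontal axis) for single hairpins, with exact 95% binomial intervals as bars and strains in colour. mir-802 drops from 95.4% and 94.2% in the first livers to between 83.4% and 87.3% in the further livers, while mir-582 ranges from 32.7% to 63.4%.

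Taken over all read numbers, the 5' starts were about as sharp as those of rno- arms. At least 20 reads fell on 36 arms, whose most used start held a median of 96.0% of the reads, against 96.3% for 469 rno- arms. In arms with at least 100 but under 1000 reads it was 96.7% against 93.1%, but in arms with at least 1000 reads 92.1% (12 arms) against 98.0% (237 arms). A share under 80% was found in 5 of 36 arms (13.9%) against 85 of 469 (18.1%). The 3' ends were less defined in both sets, with 49.7% of reads at the most used end against 58.5%, and the mean read length was 21.5 nt in both.

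**Figure D4:**
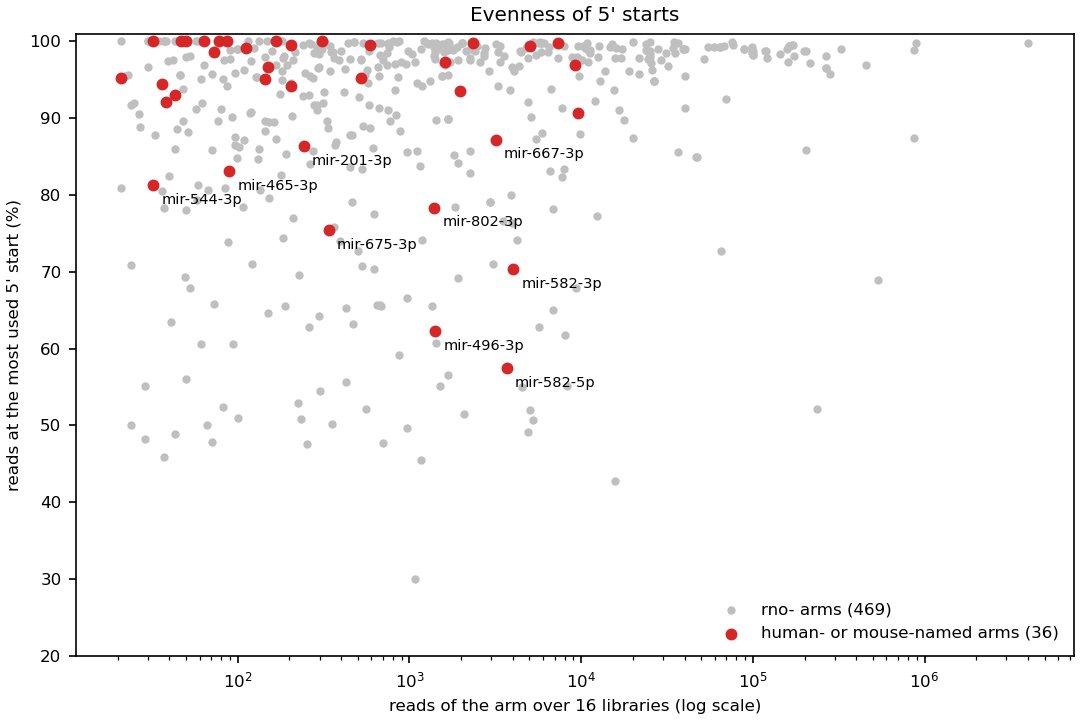
Percentage of reads at the most used 5' start (vertical axis) against the reads of the arm over 16 libraries (horizontal axis, log scale), for arms with at least 20 reads. The arms with a human or mouse name lie among the rno- arms, and the lowest of them are mir-582-5p (57.5%), mir-496-3p (62.3%), mir-582-3p (70.4%), mir-675-3p (75.4%) and mir-802-3p (78.4%).

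The 5 arms under 80% each had a second start that shifts the seed. Their alternative sequences are printed with the share of reads of the arm at that start in the next paragraph, the most used start first and each with its own seed in capitals.
mir-582-5p, most used: aTACAGTTgttcaaccagtta
mir-582-5p, 1 base later: tACAGTTGttcaaccagttact
mir-582-3p, most used: aACCTGTTgaacaactgaaccc
mir-582-3p, 1 base earlier: tAACCTGTtgaacaactgaacc
mir-496-3p, most used: aGTATTACatggccaatctcc
mir-496-3p, 2 bases earlier: tGAGTATTacatggccaatct
mir-675-3p, most used: tGTATGCCctaaccgctcagt
mir-675-3p, 1 base earlier: cTGTATGCcctaaccgctcagt
mir-802-3p, most used: aCGGAGAGtctttgtcactcagt
mir-802-3p, 1 base later: cGGAGAGTctttgtcactcagt

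mir-582-5p had 57.5% of its reads at the first of these starts, 33.2% at the next base, which is the start of the RefSeq mature sequence, and 8.51% at the base after it. mir-582-3p had 70.4% and 27.7%, mir-496-3p 62.3% and 37.4%, mir-675-3p 75.4% and 24.6% and mir-802-3p 78.4% and 21.3%. The earlier start of mir-496-3p gives it the seed of mir-503-3p. mir-667-3p (87.2% and 12.2%) and mir-201-3p (86.4% and 10.7%) also had a second start above 10%, in both cases 1 base later, as did the less read mir-465-3p (10.1%, 1 base later) and mir-544-3p (12.5%, 2 bases earlier). Both arms of mir-582 were thus uneven, while mir-362-3p and mir-362-5p had 99.8% each at a single start.

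The share of the most used start of mir-582-5p varied between libraries, also within a tissue. It held 35% and 36.8% of the reads in heart (intervals 20.6 to 51.7 and 25.4 to 49.3), 45.7% to 52.8% in spleen, 49.4% and 62.1% in brain and 51.0% to 54.7% in kidney. In the livers it was 54.2% (SHR liver 1), 65.1%, 82.9%, 70.9% and 69.3%. The values of heart were the lowest and those of the further livers the highest, but a heart library held only 40 or 68 reads of the arm, and its interval overlapped with those of both spleens (38.6 to 66.7 and 33.7 to 58.1). A tissue difference was not tested. The intervals in brain were 46.8 to 52.1 in BN-Lx and 59.0 to 65.1 in SHR, so the 2 brains differed by more than counting error. mir-582-3p ranged from 51.9% in SHR kidney to 76.0% in BN-Lx brain.

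**Figure D5:**
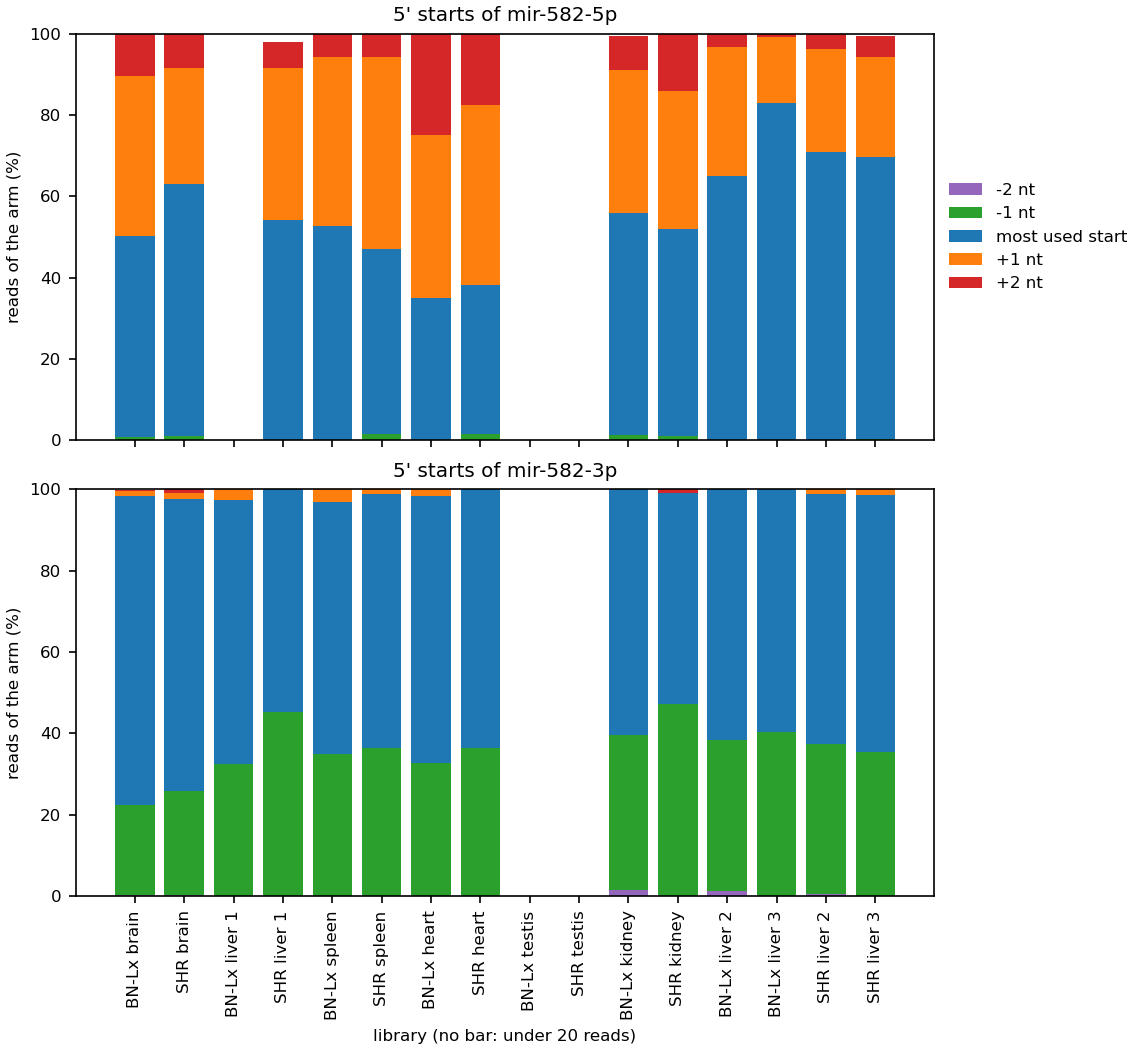
Percentage of reads of mir-582-5p and mir-582-3p (stacked bars, vertical axis) at each 5' start, as the distance in nt from the most used start, by library with at least 20 reads of the arm (horizontal axis). The most used start of mir-582-5p falls to 35% and 36.8% in heart and reaches 82.9% in BN-Lx liver 3.

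For mir-496-3p, 57.7% (54.2 to 61.1) of reads in BN-Lx brain and 67.0% (62.8 to 71.0) in SHR brain lay at the most used start. In the first livers 60.8% and 64.6% of mir-675-3p and 61.5% and 65.7% of mir-802-3p lay at the most used start, against 75% to 84.2% and 78.2% to 81.1% in the further livers. As for the arm shares of mir-802 and mir-511, the values of the first and further livers did not overlap. The exact intervals of these starts did overlap in part. For mir-675-3p they were 49.5 to 77.8 in SHR liver 1 (48 reads) and 60.0 to 90.7 in BN-Lx liver 2 (32 reads). For mir-802-3p they were 53.4 to 76.7 in SHR liver 1 (70 reads) and 72.1 to 83.6 in BN-Lx liver 2 (216 reads).

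The rno- arm with the most similar profile was sought for each of the 23 arms with at least 100 reads, as Spearman's rho over the 12 libraries of the 6-tissue set and 375 rno- arms, which is a description only because all arms share libraries and depth. In the Dlk1-Meg3 domain, mir-667-3p was most like mir-487b-3p (0.965), mir-666-3p most like mir-543-3p (0.935), mir-665-3p most like mir-539-3p (0.866) and mir-1193-3p most like mir-409-5p (0.944), all from the same domain. mir-496-3p was most like the brain miRNA mir-9-3-3p (0.965), mir-764-3p most like mir-770-5p (1) and mir-582-3p most like mir-29a-5p (0.956). mir-764-3p was at 0 in 9 of the 12 libraries, so its value of 1 rests largely on ties at 0. mir-202-5p was most like mir-742-3p (0.937), followed by mir-34c-5p (0.918), and mir-201-3p and both arms of mir-547 were most like an arm of mir-542 (0.804 to 0.868). mir-802-5p was most like mir-193-5p (0.959), mir-675-3p most like mir-28-3p (0.819), and mir-362-3p was as close to mir-19b-1-3p as to mir-92a-1-5p (0.951). The lowest best values were those of mir-1249-3p (0.741, mir-124-1-3p) and mir-511-3p (0.748, mir-466b-1-5p).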

How the data were processed

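Small RNA libraries (Ambion SREK kit) were sequenced on SOLiD by the authors, who trimmed the linker, mapped with SHRiMP to hairpins of RGSC3.4 and miRBase v12, and kept perfect matches. The deposited values are estimated counts of reads per start and end on a hairpin, with reads that fit several hairpins divided evenly and no normalization. From these, reads were summed per arm, by read midpoint against the middle of the hairpin (357 hairpins) or the gap between the arms (35). Counts were rounded for edgeR 4.0.16 (quasi-likelihood, TMM, filterByExpr, terms tissue and strain, Benjamini-Hochberg at 0.05, two-sided; R 4.3.3), and DESeq2 1.42.0 was an alternative; livers were compared by strain alone. Each ± value is the absolute log2 fold change divided by the square root of the F statistic, not an error that edgeR estimates. Where F was near 0 this value was not usable. The script was tested on simulated data. Intervals are exact (Clopper-Pearson, 95%) and cover counting error only. All 31 hairpins were named, with per-library values for arms of at least 100 reads or called by edgeR. The hairpins, lists and tests were chosen with earlier results of these data known. The liver number was used as a block only in an alternative fit. Livers of the same number deviated together from their strain means (correlations 0.668, 0.571 and 0.300). The first livers share a number, so these correlations include the difference between first and further livers. They do not show that the animals were paired. Alternatives were another scaling, no filter, all 16 libraries, each library left out and, chosen after seeing the data, a floor of 3 reads, the unfiltered block fit and the libraries without testis. Sequences came from the study's sequence list and RefSeq (GRCr8).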

Additional observations from a re-analysis of the deposited data

How the results depend on the processing

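Depth limits testis most, where 3 reads are 103 to 112 RPM, and 2 libraries per tissue leave the error to be pooled over tissues. Of the 46 arm and tissue pairs called by edgeR, 22 were called in every setting that tested the arm and 0 changed direction. Not every setting tested every pair. Leaving out a library in turn kept 489 calls and lost 63, and the other settings kept 298 and lost 12. The cause of the losses was not tested.

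The number of called arms moved as follows. With DESeq2, lower calls were 9 in brain (4 by edgeR), 7 in spleen (4), 4 in heart (0) and 4 in kidney (1). With ocm scaling they were 2 in heart and 0 in testis (2). Without the filter, 7 arms were higher in kidney (3) and 1 was lower in heart. Without the testis libraries, lower calls were 1 in liver (2), 2 in spleen and 1 in heart, and with all 16 libraries 1 in liver. Leaving out a library in turn gave 10 to 14 higher and 3 to 4 lower arms in brain, 4 to 5 and 0 to 2 in liver, 1 to 3 and 0 to 4 in spleen, 1 to 3 and 0 to 1 in heart, 7 to 9 and 0 to 3 in testis, and 0 to 5 and 0 to 1 in kidney. The number of arms called between strains stayed at 0 to 0 over the 6 tissues and at 0 to 0 in liver.

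Where at least 10 reads in the tissue were required in each strain, 19 arms were 5 times higher in a tissue (29 as reported). The share of all arms under this requirement is not given. With values under 3 reads raised to 3 there were 11. The median arm had 59 reads in the 6-tissue set and 144 among arms with at least 10 reads. The major arm held 98.1% in hairpins with at least 100 reads. The most used start held 95.2% in arms with at least 100 reads and 95.2% in the 6-tissue set, and 51.6% of hairpins had at least 10 reads on both arms.

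With the replicate number of the livers as a block, which pairs BN-Lx and SHR livers, 0 of 11 arms were called between strains (edgeR, 0 of 11 and 22 of all 270 arms under 0.05 before adjustment). Without the filter as well, the block fit also called 0 arms. The block changed no call.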
